A study of Mus musculus with 2 samples.

Results

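The endocardial cushion and valve mesenchyme genes *Twist1*, *Snai1*, *Snai2*, *Msx1*, *Msx2*, *Prrx1*, *Has2*, *Vcan*, *Postn* and *Tgfb2* were followed as 10 of the 21938 protein-coding genes annotated on the mouse genome. They were chosen by name for their known roles, and the rule uses no measured value, although earlier results of these data were known when the list was drawn up. Every annotated transcription start of each gene was examined with 1 kb on each side, and each locus was taken as the gene body with 50 kb on each side. An accessible region is the stretch covered by a peak in both replicates, called a shared region, and 85 of the 98924 shared regions fell in the 10 loci.

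Accessible chromatin was profiled by ATAC-seq, in which a transposase inserts sequencing adapters into open DNA. The tissue was the whole heart of wildtype (WT) FVB mouse embryos at E11.5, and the labels name no transgene, deletion or treatment. Each of the 2 replicates held a pair of hearts, and both form 1 group, so no comparison between conditions and no test between samples was possible. Enrichment is the read pileup at a peak summit relative to a genome-wide background, as listed for each replicate, and a mean ± SD covers both replicates (n = 2).

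The endocardial cushions are swellings of the atrioventricular canal and outflow tract from which the heart valves and parts of the septa are built. Signals from the neighbouring myocardium, among them BMP and TGF-beta ligands, lead endocardial cells to lose their junctions and to enter a matrix rich in hyaluronan and versican as mesenchyme. SNAIL, TWIST and MSX transcription factors are known regulators of this epithelial to mesenchymal transition, and neural crest cells add mesenchyme to the outflow tract. These cells are a minority of a whole heart. A region open in fewer cells of a type and a region less open in each cell cannot be told apart in such a sample.

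All 10 genes had a shared region within 1 kb of a start, where 67.6% of protein-coding genes had one. Mean enrichment there ran from 6.04 at *Postn* to 28.3 at *Vcan*. The 150 bases before the start are shown for the genes at both ends of that range (*Vcan*, *Snai2* and *Postn*) and for *Twist1* and *Msx2*, which with *Postn* were the members whose window held TATAAA. Each window is free of annotated exons, lies on GRCm38 (mm10), and reads 5′ to 3′ in the direction of the gene up to the base before the start. Capitals mark matches on either strand to any of the 14 short motifs searched.
*Vcan* (chr13:89742510-89742659, - strand): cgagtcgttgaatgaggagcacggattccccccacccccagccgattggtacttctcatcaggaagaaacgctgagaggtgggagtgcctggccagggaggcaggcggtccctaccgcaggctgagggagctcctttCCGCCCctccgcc
*Snai2* (chr16:14705702-14705851, + strand): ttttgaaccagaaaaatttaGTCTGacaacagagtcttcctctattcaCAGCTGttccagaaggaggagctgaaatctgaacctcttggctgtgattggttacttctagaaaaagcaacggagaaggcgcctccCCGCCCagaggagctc
*Twist1* (chr12:33957521-33957670, + strand): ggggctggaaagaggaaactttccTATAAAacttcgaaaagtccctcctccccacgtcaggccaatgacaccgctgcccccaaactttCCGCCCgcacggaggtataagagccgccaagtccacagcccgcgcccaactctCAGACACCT
*Msx2* (chr13:53473075-53473224, - strand): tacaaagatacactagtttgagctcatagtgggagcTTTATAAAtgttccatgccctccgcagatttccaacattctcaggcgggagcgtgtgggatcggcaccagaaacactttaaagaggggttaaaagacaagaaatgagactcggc
*Postn* (chr3:54360959-54361108, + strand): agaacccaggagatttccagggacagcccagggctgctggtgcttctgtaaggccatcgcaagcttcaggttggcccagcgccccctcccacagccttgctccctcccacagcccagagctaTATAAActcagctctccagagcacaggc

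With the base before the start counted as −1, the letters TATAAA began at −28 in *Postn* and at −126 in *Twist1*. In *Msx2* they began at −112, overlapped by their reverse complement TTTATA at −114. Thus 3 of 10 member windows held the motif, against 2.9% of the 14820 windows of protein-coding genes with a start region. Within 20 to 40 bases before the start, where a TATA box is usually placed, only *Postn* held it, against 0.91% of all windows. CCGCCC, the reverse complement of the SP/KLF motif GGGCGG, marked the windows of *Vcan*, *Snai2* and *Twist1*, and 5 of 10 members held it, against 55.5% of all. The remaining capitals in *Snai2* are CAGCTG, an E-box of the kind bound by bHLH factors, with GTCTG of the SMAD motif. In *Twist1* they are CAGAC, the reverse complement of the SMAD letters, overlapped by ACACCT, that of the T-box letters. Matching letters are a description of the reference sequence, which comes from another strain than FVB, and do not show binding.

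Ranked by the highest region at a start, the genes fell into 4 levels whose replicate values did not overlap. *Vcan* and *Snai2* formed the highest level. *Has2*, *Twist1*, *Msx1* and *Snai1* followed, then *Msx2*, *Tgfb2* and *Prrx1*, and *Postn* was the lowest. Neighbours in the order within a level overlapped in their replicate values. Enrichment of at least 10 was reached by 9 of 10 members, against 56.8% of protein-coding genes and 84.1% of those with a start region. In *Has2* and *Prrx1* the highest region had its summits over 1 kb inside the gene. The regions that covered their starts had means of 12.5 and 9.36. The levels and the count of 9 thus hold for the 1 kb window and depend on it. Among genes with a start region, the median of the members was 18.5 and that of all 14820 was 24.5, and only *Snai2* and *Vcan* lay above the latter in both replicates.

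**Figure D1:**
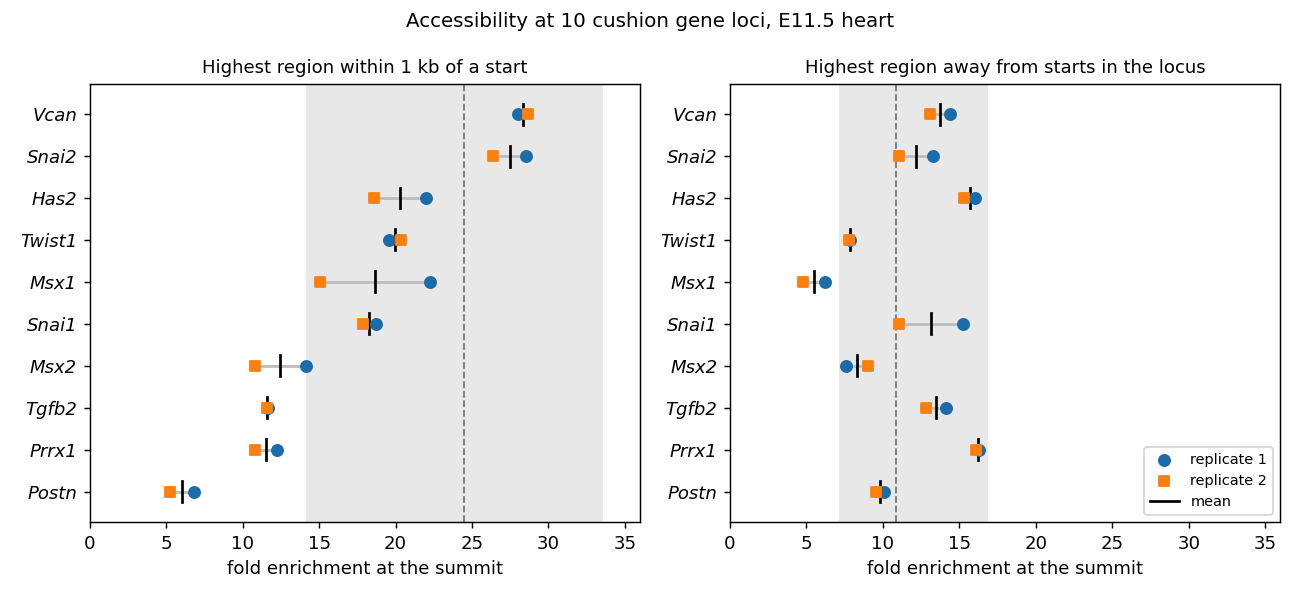
Enrichment at the summit (x axis, linear, no unit) in replicate 1 (circles) and replicate 2 (squares) with the mean (vertical bar) for each gene, at the highest region within 1 kb of a start (left) and at the highest region over 1 kb from every protein-coding start that held both summits (right). Grey bands span the quartiles over the protein-coding genes that have such a region (14.2 to 33.5 on the left, 7.20 to 16.8 on the right) and dashed lines their medians (24.5 and 10.9). *Vcan* and *Snai2* lie to the right of the dashed line on the left, and *Prrx1*, *Tgfb2* and *Postn* have higher values on the right than on the left.

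Among the transcription factors, *Twist1*, a bHLH factor that keeps cushion mesenchyme proliferating, lay under a region of 2514 bp (chr12:33956708-33959221). The replicates gave 19.6 and 20.4 (19.96 ± 0.57). The region overlapped coding sequence and was longer than 92.6% of promoter regions, while its enrichment exceeded that of 36.4% and 38.7% of the genes with a start region in replicates 1 and 2. The summits lay 45 and 18 bp inside the gene.

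*Snai1* and *Snai2* encode zinc finger repressors that shut down cadherin genes during the transition. *Snai2* (chr16:14704985-14706579, 1595 bp) had values of 28.5 and 26.4 (27.46 ± 1.502), with summits at −167 and −214 bp from the start. *Snai1* (chr2:167537757-167538434, 678 bp) had values of 18.7 and 17.8 (18.3 ± 0.63), with summits at −73 and −77 bp. The replicate values of both genes did not overlap. At each gene replicate 1 had a single long peak where replicate 2 had a second, weak peak past the promoter peak, of 3.77 at *Snai1* and 3.52 at *Snai2*. The overlap of that weak peak with the long peak made a second shared region at the start.

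*Msx1* and *Msx2* encode homeobox factors of the atrioventricular cushions. The region of *Msx1* (chr5:37823453-37824936, 1484 bp) had values of 22.3 and 15.1 (18.7 ± 5.08), the widest spread of the 10 genes, with replicate 1 higher by a factor of 1.48. Its summits lay 1 bp apart. *Msx2* (chr13:53472294-53473031, 738 bp) had values of 14.1 and 10.8 (12.5 ± 2.34). Its region did not cover the start but ended 43 bp inside the gene and overlapped a coding exon. The values of *Msx2* lay below both values of *Msx1*.

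*Prrx1*, a homeobox gene of mesenchyme in limb, face and heart, had a pair of regions at its 4 clustered starts. The higher of them (chr1:163311652-163313056, 1405 bp) lay over a coding exon, with summits 1611 and 1644 bp inside the gene and values of 12.2 and 10.8 (11.52 ± 0.999). The region that covered the starts (chr1:163313346-163315395, 2050 bp) had values of 8.42 and 10.3 (9.36 ± 1.33). In both replicates the starts of *Prrx1* were therefore less enriched than the sequence just inside the gene.

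Of the matrix genes, *Vcan*, which encodes versican, a proteoglycan that binds hyaluronan in the cardiac jelly, had the highest and longest start region. It spanned 4318 bp (chr13:89738820-89743137), longer than 99.4% of promoter regions, and covered 6 of the 9 annotated starts. Enrichment was 28.0 and 28.7 (28.3 ± 0.48), above 60.2% and 61.3% of the genes with a start region. The summits lay at 76 and −34 bp from the outermost start.

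*Has2* encodes the hyaluronan synthase that fills the cardiac jelly. Its highest region (chr15:56692139-56693697, 1559 bp) had values of 22.0 and 18.6 (20.3 ± 2.403), with summits 2107 and 2062 bp inside the gene, over an exon of the noncoding *Has2os*. The region on the start itself (chr15:56694348-56695181, 834 bp) had 14.1 and 10.8 (12.5 ± 2.34). The values inside the gene were higher than those at the start in both replicates. A further region lay just before the start (chr15:56695532-56696142), where replicate 1 had the same peak as at the start and replicate 2 had 5.03.

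*Postn* encodes periostin, a matricellular protein of maturing valve mesenchyme. Its start region was the shortest (chr3:54360945-54361216, 272 bp) and weakest, with values of 6.79 and 5.28 (6.04 ± 1.07), above 7.2% and 5.2% of the genes with a start region. Its −log10 q-values were 13.5 and 8.97, and with a q-value limit of 1e-10 in both replicates *Postn* alone of the 10 lost its start region. The sequence around its start was also the poorest of the 10 in CpG, with an observed to expected ratio of 0.214 within 0.5 kb. The ratio reached 0.871 at *Twist1* and its median was 0.675 for the members, 0.597 for all protein-coding genes and 0.721 for those with a start region. Across the 10 genes the CpG ratio and start enrichment had a Spearman rho of 0.27, and across the 14820 genes with a start region 0.46.

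*Tgfb2*, the TGF-beta ligand produced in the cushion regions, had values of 11.7 and 11.6 (11.6 ± 0.08) at its outermost starts (chr1:186705080-186706431, 1352 bp), above 18.3% and 20.1% of the genes with a start region. A weaker region lay in the intron (chr1:186702586-186703385) with values of 8.42 and 5.28. The closest replicate values of the 10 genes were thus found at a promoter of low rank.

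All starts without a shared region were internal starts of the longer genes. Of the 35 annotated starts of the 10 genes, 23 had a shared region within 1 kb, against 58.0% of all starts of protein-coding genes and 70.1% of the starts of genes with a start region. The share in the members thus lay between these references. The other 12 were 5 of *Postn*, 3 of *Vcan*, 3 of *Tgfb2* and 1 of *Prrx1*, while other starts of the same genes close to the outermost start shared its region. They lay 3814 to 22201 bp from the nearest shared region, and 11 of them had no peak in either replicate. The retained-intron start of *Vcan* at chr13:89721971 had a peak in 1 replicate. At the edge of the 1 kb limit, a start of *Tgfb2* lay 747 bp from a region and was counted as having it, while the nearest start outside the limit was that of *Prrx1* at 3814 bp.

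Away from starts, 66 of the 85 regions lay over 1 kb from every start of a protein-coding gene. They comprised 36 intergenic regions, 25 in introns, 4 over exons outside coding sequence and 1 over a coding exon, with noncoding genes included. For 60 of the 66 the nearest protein-coding start was that of the member itself. Counts of these regions per locus were 10 for *Has2*, 11 for *Vcan*, 9 for *Prrx1* and 8 for *Snai1*, while *Snai2* had 1.

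**Figure D2:**
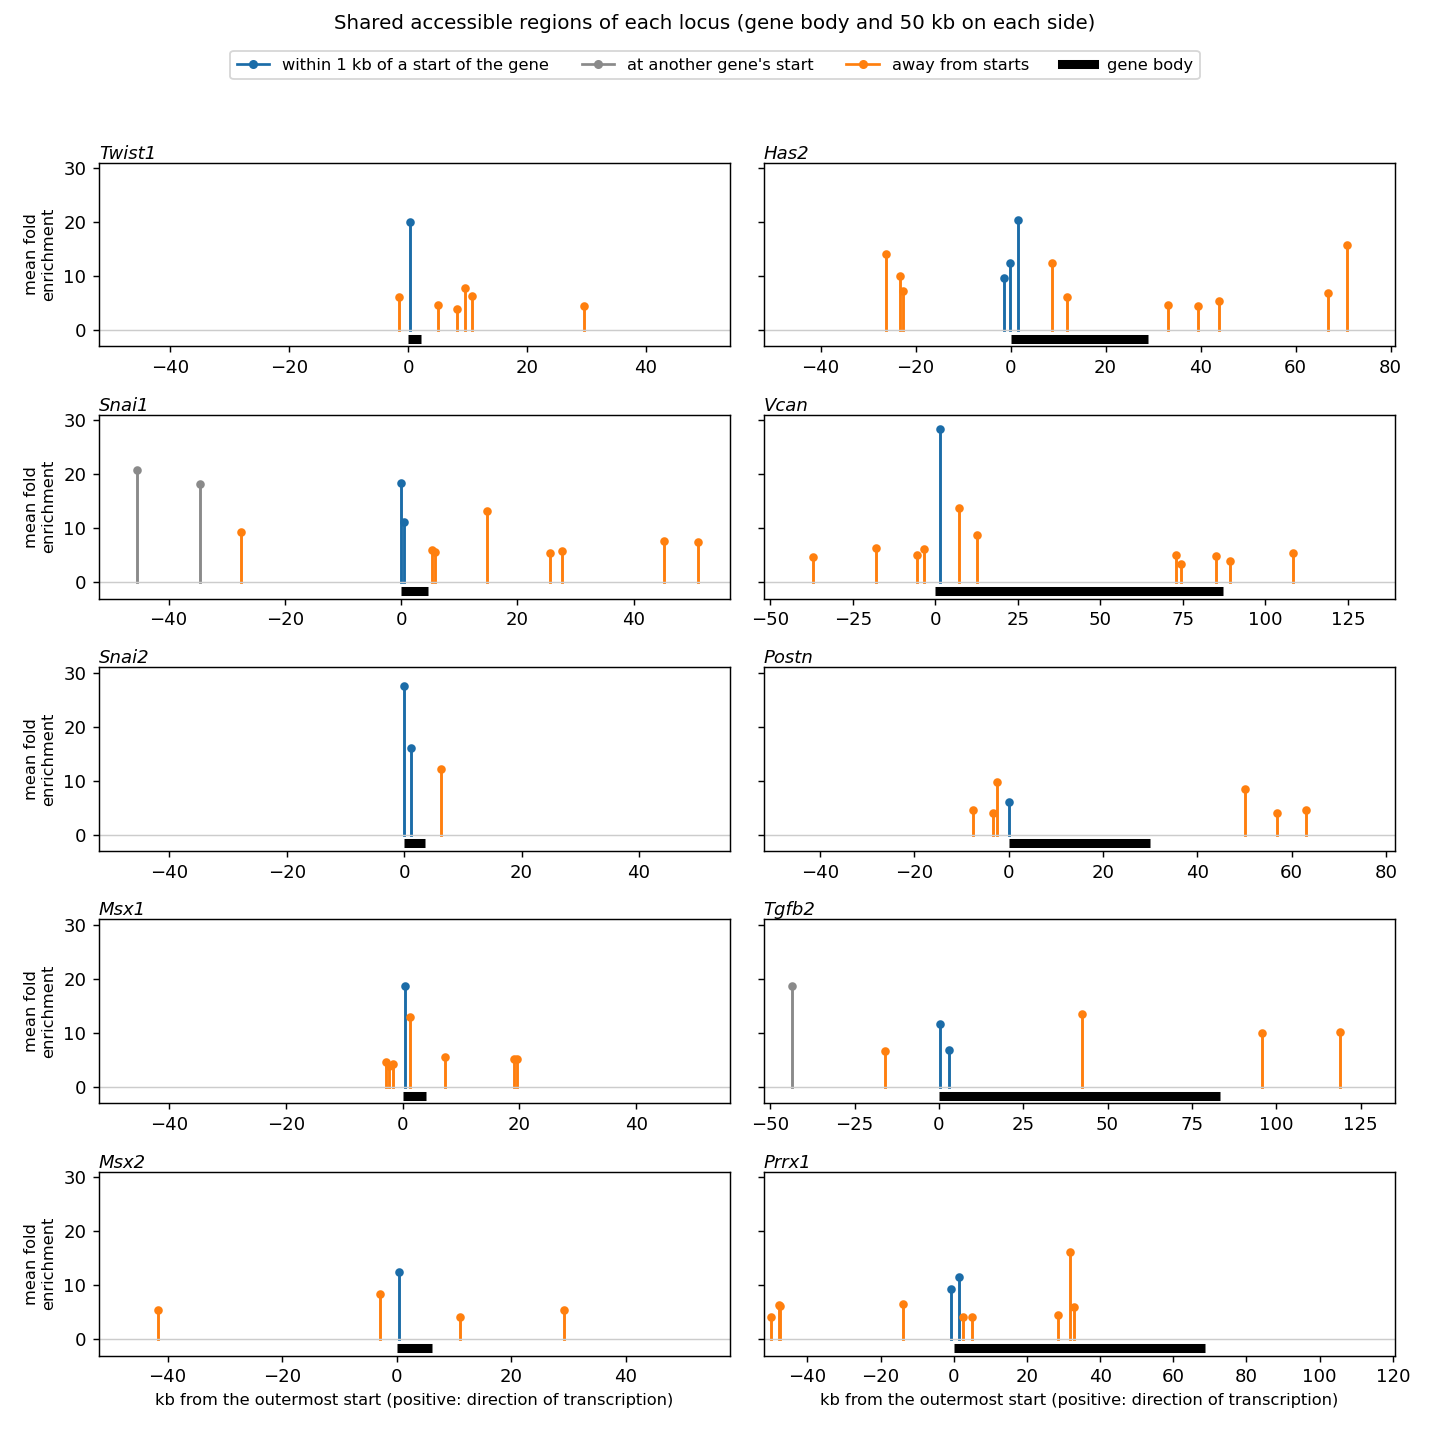
Shared regions of each locus by the distance of their midpoint from the outermost annotated start (x axis, kb, positive in the direction of transcription) and their mean enrichment over both replicates (y axis, linear). Blue marks regions within 1 kb of a start of the gene, grey those at the start of another gene, and orange all others, with the gene body as a black bar. *Snai2* has 1 orange region, *Has2* 10 on both sides and within the gene, and in *Prrx1* and *Postn* an orange region is the highest of the locus. The orange region of *Msx1* at a mean of 12.9 is the cut end of its promoter peak.

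The highest region away from starts was compared with the start region of the same gene, with only those regions considered in which both replicates had their summit. In *Prrx1*, *Tgfb2* and *Postn* the region away from starts was higher than the highest start region in both replicates. That was 3 of 10 members, against 18.6% of protein-coding genes with a start region. *Has2* would join them by the region on its start (14.1 and 10.8), since its region away from starts had 16.0 and 15.3. The share of 18.6% was not computed in that way. The windows of *Prrx1*, *Tgfb2* and *Postn* are shown around the midpoint between the summits. Shown with them are those of *Has2* and *Vcan*, the next most enriched after *Prrx1*, and of *Snai2*, its only region away from starts. All are plus strand sequence of GRCm38 without annotated exons, and capitals mark the same 14 motifs.
*Prrx1* (chr1:163281757-163281907, + strand): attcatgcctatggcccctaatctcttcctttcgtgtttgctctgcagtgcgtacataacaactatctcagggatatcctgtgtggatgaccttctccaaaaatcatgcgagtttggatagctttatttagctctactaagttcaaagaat
*Has2* (chr15:56623557-56623707, + strand): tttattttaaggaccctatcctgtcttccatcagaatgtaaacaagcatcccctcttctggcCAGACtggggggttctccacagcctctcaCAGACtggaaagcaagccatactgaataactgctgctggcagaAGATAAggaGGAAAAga
*Vcan* (chr13:89735224-89735374, + strand): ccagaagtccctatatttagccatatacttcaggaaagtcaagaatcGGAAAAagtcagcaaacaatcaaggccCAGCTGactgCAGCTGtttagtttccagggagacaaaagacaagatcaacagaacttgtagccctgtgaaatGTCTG
*Tgfb2* (chr1:186663400-186663550, + strand): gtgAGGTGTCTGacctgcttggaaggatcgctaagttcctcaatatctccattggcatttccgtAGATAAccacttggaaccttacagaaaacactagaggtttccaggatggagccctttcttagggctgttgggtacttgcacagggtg
*Snai2* (chr16:14711875-14712025, + strand): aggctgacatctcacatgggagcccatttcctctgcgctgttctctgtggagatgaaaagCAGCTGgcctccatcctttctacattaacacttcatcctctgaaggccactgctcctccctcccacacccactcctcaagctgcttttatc
*Postn* (chr3:54358664-54358814, + strand): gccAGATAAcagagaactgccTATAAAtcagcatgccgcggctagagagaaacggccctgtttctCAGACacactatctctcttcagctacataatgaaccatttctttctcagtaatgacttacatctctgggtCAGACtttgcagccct

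In the windows shown, AGATAA, the motif of GATA factors, occurred in *Has2*, *Tgfb2* and *Postn*. It was found in 3 of 10 member windows, against 17.0% of 68598 windows of the same length at regions away from starts. CAGCTG occurred in *Snai2* and, with a pair of matches, in *Vcan*. With *Snai1* it was found in 3 of 10 windows, against 15.4% of all. SMAD letters (CAGAC or GTCTG) occurred in *Has2*, *Vcan*, *Postn* and *Tgfb2*, 4 of 10 against 38.5%, and in *Tgfb2* they overlapped the T-box letters AGGTGT. The NFAT letters GGAAAA marked *Has2* and *Vcan*, 2 of 10 against 13.1%, and TATAAA marked *Postn*, 1 of 10 against 5.6%. The window of *Prrx1*, the most enriched of the 10, held none of the 14 motifs. Over the 56 regions away from starts that held both summits, GATA letters were found in 21.4%, against 17.0% of all windows. There CAGCTG was found in 12.5%, SMAD letters in 35.7% and NFAT letters in 8.9%, all below the shares of all windows. TEAD letters (GGAATG) were in none of the 10 member windows, but in 17.9% of the 56, against 13.1% of all. The widest gaps in the other motifs were those of SOX letters (1.8% against 7.8%) and homeobox letters (7.1% against 2.2%). The order of members and background thus differed between both sets of windows for CAGCTG, SMAD, NFAT, TEAD, homeobox and AP-1 letters, and no order is read from either set.

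The region of *Prrx1* (chr1:163281454-163282276, 823 bp) lay in an intron 31.8 kb inside the gene. Its values of 16.3 and 16.1 (16.2 ± 0.15) were among the highest of all regions away from starts, 95.0% of which were lower among those holding both summits. Both values exceeded those of either start region of the gene. The noncoding gene *Gm20471* is annotated over the same intron.

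The region of *Tgfb2* (chr1:186663103-186664012, 910 bp) also lay in an intron, 42.4 kb from the outermost start. Its values were 14.1 and 12.8 (13.5 ± 0.92). A pair of intergenic regions past the end of the gene reached means of 10.12 and 10.03, at 118.9 and 95.8 kb from the start. *Tgfb2* thus had 3 regions of at least 10 away from starts, beside a start region of 11.6.

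The region of *Postn* (chr3:54358428-54359081, 654 bp) lay 2.4 kb before the start. Its values of 10.1 and 9.55 (9.80 ± 0.35) exceeded both values of the start region. A second intergenic region past the gene (chr3:54411090-54411473) had 8.69 and 8.30. The start region of *Postn* thus had a more enriched region on either side of the gene.

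*Has2* had 4 regions of at least 10 away from starts, the most of any member. The highest (chr15:56623311-56624247, 937 bp) was intergenic, 70.8 kb from the start and past the end of the gene, with values of 16.0 and 15.3 (15.7 ± 0.49). Another (chr15:56720488-56721192) lay 26.3 kb before the start in an intron of *Has2os*, with 16.0 and 12.1. The intronic region of *Has2* itself (chr15:56685165-56686297) had 12.8 and 12.1. All lay below the region inside the gene near the start.

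*Vcan* had an intronic region 7.3 kb from the outermost start (chr13:89734839-89735594, 756 bp) with values of 14.4 and 13.1 (13.7 ± 0.94). *Snai2* had its only region away from starts 6.3 kb from the start, past the end of this short gene (chr16:14711736-14712633, 898 bp), with 13.3 and 11.1 (12.2 ± 1.59). *Snai1* had its highest 14.8 kb from the start, over an exon of the noncoding *Gm11476* (chr2:167552697-167553365, 669 bp), with 15.2 and 11.1 (13.1 ± 2.93). In all 3 genes the start region was higher in both replicates.

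In *Twist1*, *Msx1*, *Msx2* and, by a small margin, *Postn*, no region away from starts reached a mean of 10 with both summits inside. The highest of *Twist1* (chr12:33966428-33968012, 1585 bp) lay 9.5 kb past the start with values of 7.88 and 7.79 (7.84 ± 0.06). That of *Msx2* (chr13:53475716-53476286) lay 2.9 kb before the start with 7.61 and 9.05 (8.33 ± 1.02). That of *Msx1* (chr5:37816959-37817619) lay 7.3 kb from the start with 6.25 and 4.78 (5.51 ± 1.04), higher than 43.8% of regions away from starts that held both summits. A region of *Msx1* at chr5:37823187-37823331 listed at 22.3 and 3.52 was set aside, since its replicate 1 value belongs to the summit of the promoter peak. A region of at least 10 away from starts was present in the other 6 of 10 loci, against 45.5% of protein-coding loci and 55.9% of those of genes with a start region.

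Most of the loci were rich in regions away from starts. Per 100 kb the members had a median of 5.61 such regions and protein-coding loci a median of 2.87, and 8 of 10 members lay above that median, against 50.0% of all loci by construction. *Has2* (7.76) and *Snai1* (7.65) were the densest, and *Snai2* (0.97) and *Tgfb2* (2.18) lay below the median of all loci. Since all members had a start region, the median of 3.82 over the 14820 genes with a start region is the closer reference. Against it 7 of 10 members were higher, with *Msx2* (3.77) just below, against 50.0% of these genes by construction.

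Most of the members had no close protein-coding neighbour. No start of another protein-coding gene lay in 7 of the 10 loci, against 13.8% of loci genome-wide. *Ferd3l* lay near *Twist1*, *Rnf114* and *Spata2* near *Snai1*, and *Rrp15* near *Tgfb2*. For the 7 isolated members the median was 5.34 regions away from starts per 100 kb. Over the 3037 isolated loci it was 2.31, and over the 1984 of these with a start region 3.77. The start region of *Rrp15* (18.2 and 19.4) was higher than that of *Tgfb2* in both replicates. In the locus of *Snai1*, a region at the start of *Spata2* (17.9 and 23.6) and another at a start of *Rnf114* (16.3 and 20.1) were both below *Snai1* in replicate 1 and above it in replicate 2.

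**Figure D3:**
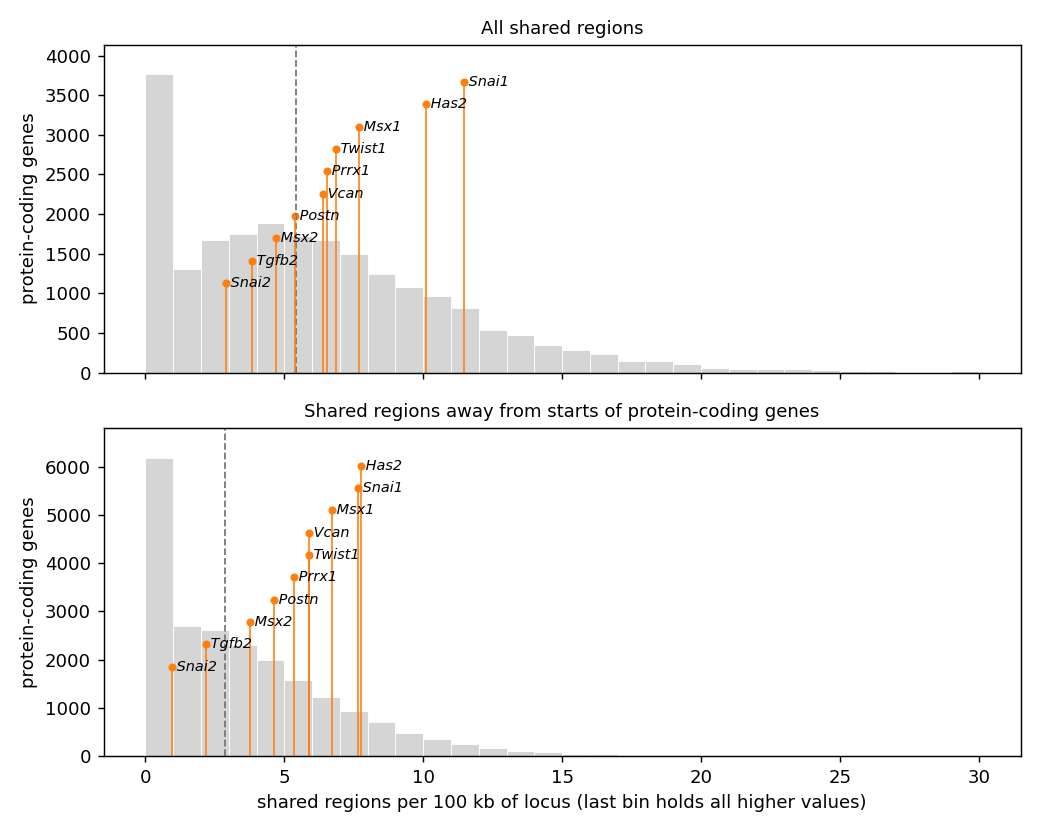
Number of protein-coding genes (y axis) by shared regions per 100 kb of locus (x axis, bins of 1), for all shared regions (top) and for those over 1 kb from protein-coding starts (bottom). Dashed lines mark the medians (5.41 and 2.87), and orange lines the 10 members, drawn at staggered heights for legibility. In the lower panel only *Snai2* and *Tgfb2* lie to the left of the median.

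With start regions included, the members had a median of 6.47 shared regions per 100 kb against 5.41 for all loci, and 6 of 10 lay above it, against 50.0% of all loci. The median over genes with a start region was 6.85, and only *Snai1*, *Has2* and *Msx1* were higher, 3 of 10 against 50.0% of these genes, with *Twist1* (6.85) at the median. *Msx1* was higher only with the cut end of its promoter peak counted as a region. Against this closer reference the median of the members was lower. The order against all loci also depended on the limits used. With a q-value limit of 1e-10 the medians were 2.05 and 2.74, and with 100 kb on each side 4.61 and 5.42, so that the members were lower. For regions away from starts the members stayed higher than all loci under the same limits, at 1.57 against 0.937 and 4.05 against 3.21. These limits were not computed for the closer reference of genes with a start region. At the edge of the 50 kb limit, a region of *Prrx1* (chr1:163363531-163363804) straddled the end of the locus and was counted. The nearest regions left out lay 280 bp outside the locus of *Postn*, with values of 5.43 and 3.77, and 1662 bp outside that of *Snai1*, with 8.42 and 4.78.

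The replicates ranked the 85 regions alike, with a Spearman rho of 0.703. The median ratio of replicate 1 to replicate 2 was 1.102, which gives the shift between them. The spread of single regions was wider, with an SD of the log2 ratio of 0.575. Over the 98850 shared regions on the main chromosomes the rho was 0.770, the median ratio 1.08 and this SD 0.531. For the highest start regions of the 10 genes the rho was 0.863. Peaks of the loci numbered 95 in replicate 1 and 103 in replicate 2, of which 17 and 19 had no partner in the other replicate. None of the unpaired peaks was strong, with maxima of 5.16 and 5.53.

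**Figure D4:**
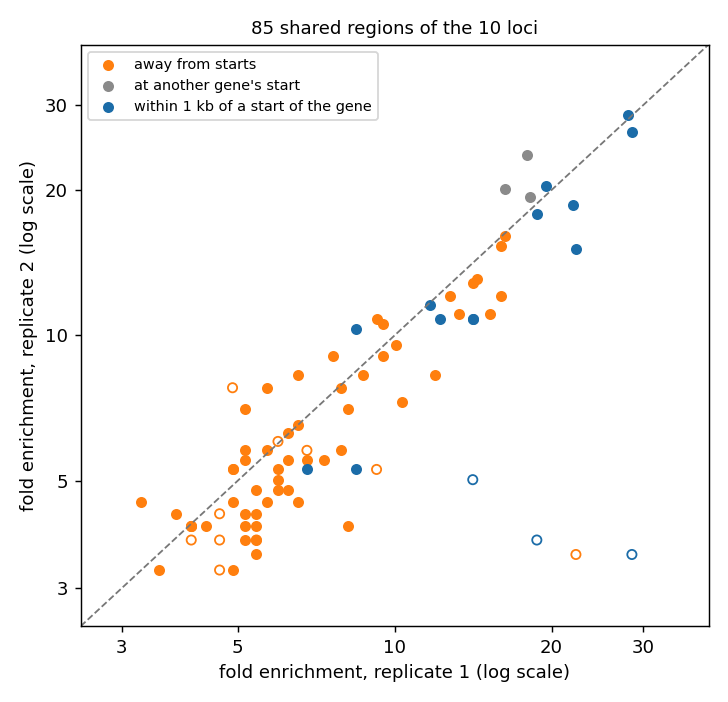
Enrichment of the 85 shared regions in replicate 1 (x axis, log scale) and replicate 2 (y axis, log scale), with the line of equal values dashed. Colours give the place of the region, and open symbols mark regions that do not hold the summits of both replicates. The 4 open symbols far below the line are parts of long replicate 1 peaks at *Snai1*, *Snai2*, *Has2* and *Msx1*.

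Other genes of cushion formation were listed by role. All 34 had a start region, against 67.6% of protein-coding genes. The median start enrichment was 20.96 for 10 ligands and receptors, 20.7 for 14 transcription factors and 13.1 for 10 matrix and adhesion genes. Of the annotated starts, 25 of 39 had a region in the ligands and receptors, 79 of 83 in the transcription factors and 22 of 50 in the matrix genes, against 58.0% of all starts and 70.1% of the starts of genes with a start region. Of the 79, 29 belong to *Zeb2* and 10 to *Zeb1*. Median regions away from starts per 100 kb were 6.48, 8.69 and 4.82 in the same order. Over all 34 genes this median was 6.24, beside 5.61 in the members, and that of all shared regions was 8.14, beside 6.47.

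Marker genes of other cells of the heart were examined in the same way. A start region was present at 6 of 6 cardiomyocyte genes, 5 of 5 endocardial, 4 of 4 epicardial and 3 of 4 blood genes, against 67.6% of all protein-coding genes. Among 7 genes of cell types that a heart should lack, 4 had one (*Myod1*, *Pax6*, *Olig2* and *Sox1*), and *Alb*, *Neurod1* and *Krt5* had none. Median regions away from starts per 100 kb were 9.07 in cardiomyocyte, 6.11 in endocardial, 6.03 in epicardial and 4.02 in blood loci. They were 5.61 in the members and 0.959 in the loci of the 7 genes that a heart should lack. *Pax6* stood apart from the others of this list, with a start enrichment of 22.0 and 18.4 and 7.01 such regions per 100 kb, more than 8 of the 10 members had. In which of these cells the cushion genes were accessible was not measured. *Cdh5* and *Nfatc1* stood both in the endocardial list and among the cushion genes.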

How the data were processed

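Hearts of wildtype FVB embryos at E11.5 were profiled by single-end ATAC-seq in 2 replicates. Per the methods and processing notes, the authors used Trim Galore 0.6.6 (Cutadapt) for trimming, Bowtie2 2.4.2 for alignment to GRCm38/mm10 and SAMtools 1.12 to discard duplicate or poorly mapped reads. MACS2 peaks were then called in each replicate separately, against a genome-wide instead of a local background. The weakest and the shortest peaks in the lists do not match the p-value limit and read extension stated for MACS2, so the calling limit behind the peak counts is uncertain. The deposited fold enrichment is a ratio at each summit over a genome-wide background, beside deposited −log10 p and q values and a score that scales −log10 q. Read totals are not part of the lists, so depth is unknown and no counting interval was computed, and sites in repeated sequence are underrepresented.

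Peaks of replicate 1 were trimmed to the parts covered by replicate 2 (bedtools 2.31.1, at least 1 bp). A region carries the value of the whole peak it came from. Genes and starts came from GENCODE M21, and densities count regions touching a locus. The named regions are, per member, the one of highest mean value within 1 kb of a start and the highest over 1 kb from all protein-coding starts. The requirement that the latter hold both summits, the density away from starts and the comparisons with isolated genes and with genes that have a start region were added after the regions were seen. Members and lists were chosen with earlier results of these data known. Whether same-group replicates shared a litter is not given in the sources used here.

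The motifs searched on both strands were E-box CAGCTG, E-box CAGATG, those of GATA factors (letters AGATAA), TEAD (letters GGAATG), SOX (letters ACAATG), homeobox TAATTA, T-box AGGTGT, AP-1 (letters TGANTCA), SMAD (letters GTCTG), ETS (letters CCGGAA), NFAT (letters GGAAAA), SP/KLF (letters GGGCGG), CRE (letters TGACGTCA) and the TATA box (letters TATAAA). The alternatives were other p and q-value limits, a reciprocal overlap of 50%, each replicate alone, other windows and flanks, summits in place of overlap, protein-coding transcripts alone and base pairs in place of regions. The overlap code was tested on simulated data. Scripts ran in Python 3.11.15 with pandas 2.3.3, NumPy 2.4.6, pysam 0.24.0 and Matplotlib 3.10.9.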

Additional observations from a re-analysis of the deposited data

How the results depend on the processing

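No paired analysis was possible because there is 1 group. Start regions at 10 members (9 with a q-value limit of 1e-10), the 23 starts with a region and the share of protein-coding genes with a start region moved by less than 1.5 times under all alternatives. The 85 regions of the loci became 38 and the 66 away from starts 24 with the q-value limit, 29 and 14 in the gene body alone, and the latter 100 with flanks of 100 kb. The median start enrichment of 18.5 became 15.4 with starts of 0.5 kb or with both summits in the window, where regions inside *Has2* and *Prrx1* drop out, and 16.5 to 19.2 in single replicates. For median densities, a move is a change beyond the SD between single replicates, not one of 1.5 times. For all regions this SD was 0.0729 in the members and 0.0667 over all loci. Median densities of the members moved with every limit, those of all regions over all loci with all but the flanks of 25 and 100 kb. Median densities are given for members against all loci. For all regions they were 5.63 and 5.02 with p of at most 0.00001, 2.05 and 2.74 with the q-value limit, 5.37 and 4.70 with reciprocal overlap, 7.57 and 5.43 with flanks of 25 kb, 4.61 and 5.42 with 100 kb, and 15.0 and 5.73 in the gene body. As percent of base pairs they were 3.72 and 3.44. Single replicates gave 7.30 to 7.40 and 6.17 to 6.27. Away from starts they were 4.85 and 2.72 with the p-value limit, 1.57 and 0.937 with the q-value limit, 4.71 and 2.55 with reciprocal overlap, 5.88 and 3.18 with starts of 0.5 kb, 4.85 and 2.53 with 2 kb, 6.31 and 2.63 with flanks of 25 kb, 4.05 and 3.21 with 100 kb, and 0.601 and 0 in the gene body. Single replicates gave 6.33 to 6.44 and 3.62 to 3.64. The order of members and all loci reversed for all regions with the q-value limit and with 100 kb flanks, and for regions away from starts under none of these alternatives; the cause was not tested.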
